A study of Homo sapiens with 4 samples.

Results

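The nuclear genes of oxidative phosphorylation were followed in HEK293, an established line from human embryonic kidney, before and after transfection of short poly I:C. Poly I:C is a synthetic analog of double-stranded RNA that cells sense as they would a virus. Members were chosen by gene symbol, taken from RefSeq where it held the gene ID that the platform annotation gives the probe. The symbol had to begin with NDUFA, NDUFB, NDUFC, NDUFS, NDUFV, SDHA to SDHD, UQCR, COX4 to COX8 or ATP5, with pseudogenes left out. The rule gave 94 of the 18639 named genes on the array, measured by 102 probes. They are 6 core and 30 accessory subunits of complex I, 3 subunits of complex II, 7 of complex III, 16 of complex IV and 17 of complex V. A further 12 are assembly factors, and 3 others are COX7A2L, ATP5IF1 and the read-through gene NDUFC2-KCTD14. The prefixes also took in 10 pseudogenes and the noncoding RNA NDUFA6-DT, which are not members. NDUFA4 carries the symbol COXFA4 in the naming used here and so falls outside the rule.

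Total RNA was hybridised to 4 single-colour Cy5 arrays, 1 for each combination of line and time. The LGP2 line is HEK293 with an LGP2 transgene. LGP2 belongs with RIG-I and MDA5 among the RIG-I-like receptors, helicases that bind viral RNA. The 4KR line is HEK293 with a transgene for LGP2-4KR, whose abbreviation the labels do not define. The groups were LGP2 0 hr and 4KR 0 hr, both unstimulated, and LGP2 12 hr and 4KR 12 hr, taken 12 h after short poly I:C (100 ng/ml) had been delivered with Lipofectamine. All groups share the HEK293 background and carry a transgene, and no line without one was analysed here. The labels name neither the promoter of the transgene nor whether a line is 1 clone. Neither a mock transfection nor untreated cells at 12 h were analysed here, so poly I:C, transfection and time in culture cannot be told apart. With 1 array per group, no ratio within a line has a replicate check.

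Oxidative phosphorylation couples electron flow to ATP synthesis in the inner mitochondrial membrane. Complex I takes electrons from NADH and complex II from succinate. Ubiquinone carries them to complex III, cytochrome c carries them on to complex IV, which reduces oxygen, and complex V uses the resulting proton gradient to make ATP. Most subunits are encoded in the nucleus, and a small set, which no named probe measured, in mitochondrial DNA. Assembly factors help to build the complexes and are not part of the finished enzymes.

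Detection required a signal more than 2 SD above the average blank spot on the same array. The share of gene probes detected was 83.2% for LGP2 0 hr, 83.8% for 4KR 0 hr, 89.2% for LGP2 12 hr and 88% for 4KR 12 hr. Among the members, 91 were detected on all 4 arrays, COX7B2 on none, COX8C on 2 and NDUFC2-KCTD14 on 3. All 7 measured HEK293 markers were detected on all 4 arrays, but so were markers of other cell types. Of 4 immune markers, CD3E, CD14 and LYZ were detected on all 4 arrays and PTPRC on none, and the skeletal muscle markers MYH2, CKM and ACTA1 were all detected, with deposited intensities of these 6 genes between 1.455 and 26.4. The hepatocyte gene ALB was detected on none. The keratin genes KRT5 and KRT14 were detected on all 4 arrays, between 52.1 and 70.8 and between 152.8 and 208.0 in deposited intensity. The 10 interferon-induced check genes had a median log2 ratio of 12 hr over 0 hr of 4.70 in LGP2 cells and 4.63 in 4KR cells. Probes in blocks 20, 21 and 24 of the array stood apart: the median difference of the 2 lines' ratios over all genes there was -0.08, -0.09 and 0.15, against -0.02 to 0.05 in the other blocks. These blocks hold 12 members, and the block is named where their values are given.

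Intensities below are those of the authors' deposited table, scaled so that each array has a median of 25. Log2 ratios are 12 hr over 0 hr after background correction with an offset of 50 and quantile normalization, which holds the overall distribution of the 4 arrays equal. In the deposited table itself, the median gene had a log2 ratio of 0.24 in LGP2 cells and 0.14 in 4KR cells. Adjusted p-values are from an additive limma fit of line and stimulation, in which the lines stand in for replicates, over the 15738 genes detected on all 4 arrays. The fit has 1 residual degree of freedom, and its error is the disagreement between the lines, so the p-values do not measure the spread between cultures. Arrays report shares of the RNA applied, so fewer transcripts of a gene per cell cannot be told apart from more RNA of other genes, or from a smaller share of cells that express it.

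Subunit genes had mostly lower ratios in both lines, and the 12 assembly factors among the members mostly higher ones. The 44 respiratory genes outside the prefixes, mainly further assembly factors, did not share this, with medians of -0.07 and -0.09. The median log2 ratio of the 78 subunits detected on at least 1 array was -0.16 for LGP2 cells and -0.20 for 4KR cells, against -0.01 in both lines for all genes. Of these subunits, 68 (87.2%) lay below 0 in LGP2 cells and 65 (83.3%) in 4KR cells, compared with 53.8% and 54.1% of all genes. In the additive fit, 24 of 77 subunits fell (31.2%) and 0 rose, against a background of 8.55% of all genes lower and 9.05% higher. Without normalization between arrays the direction turned: the subunit medians were 0.01 and 0.19, below those of all genes at 0.13 and 0.28, and NDUFS7, ATP5F1D, ATP5F1E, COX7A2L and NDUFAF3 also changed sign. At an unadjusted p under 0.05 the same limma fit had 50 of 77 subunits lower and 2 higher, against 18.3% of all genes lower and 16.4% higher. Over all 94 members, 26 of 91 fell and 2 rose.

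The shifts were small. In LGP2 cells, 2 members were 1.5-fold lower, COX7B and NDUFA13, against a background of 0.501% of all genes. NDUFAF4 was the 1 member 1.5-fold higher there, with a background of 1.85%. The probes of COX7B and NDUFA13 lie in block 24 and that of NDUFAF4 in block 21, so without the shifted blocks both counts were 0. With the block medians taken off, COX7B (-0.59) and NDUFAF4 (0.74) still passed 1.5-fold and NDUFA13 (-0.54) did not. In 4KR cells only NDUFV1 passed 1.5-fold, as lower, with a background of 0.418% lower and 1.57% higher. None of the members reached 2-fold, which 0.442% of all genes did in LGP2 cells and 0.412% in 4KR cells. The fitted calls therefore concern changes mostly below 1.5-fold.

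**Figure D1:**
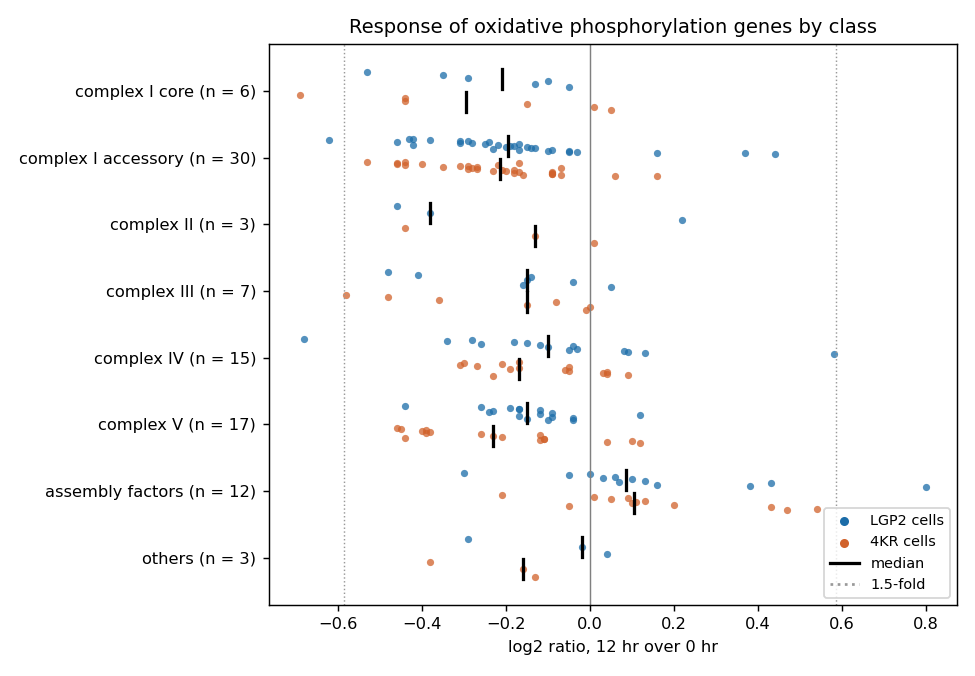
Each point is the log2 ratio of 12 hr over 0 hr for 1 member detected on at least 1 array, in LGP2 cells (blue) and 4KR cells (orange), grouped by complex; black bars are medians and dotted lines mark 1.5-fold. The medians of the 6 subunit classes lie below 0 in both lines, and those of the assembly factors lie at 0.08 and 0.11.

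Complex I held the largest number of lower subunits. Among its 6 core subunits, which carry the flavin and iron-sulfur clusters, NDUFV1, NDUFS7 and NDUFS8 fell. NDUFV1, the subunit that binds NADH and the flavin, went from 472.2 to 347.6 in LGP2 cells and from 460.8 to 285.2 in 4KR cells. Both 12 hr values lay below both 0 hr values. After quantile normalization the ratio was 1.44-fold and 1.61-fold lower. Its fitted log2 change was -0.61 (SE 0.054, limma adjusted p = 0.021), the lowest mean response of all members.

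NDUFS7, an iron-sulfur subunit next to the ubiquinone site, went from 205.7 to 180.4 in LGP2 cells and from 192.5 to 147.1 in 4KR cells. Again both 12 hr arrays were below both 0 hr arrays, with a log2 change of -0.40 (SE 0.041, limma adjusted p = 0.024). NDUFS8, a further iron-sulfur subunit, had log2 ratios of -0.29 and -0.44 (limma adjusted p = 0.032). The other core subunits did not pass. NDUFS3 was nearly level, at 797.3 and 781.1 in LGP2 cells and 798.0 and 776.0 in 4KR cells, with log2 ratios of -0.05 and 0.05. NDUFV2, an iron-sulfur subunit of the NADH-oxidising arm, had -0.13 and 0.01, and the large iron-sulfur subunit NDUFS1, a dim probe, had -0.10 and -0.15. So 3 of the 6 core subunits passed the fit.

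Of the 30 accessory subunits of complex I, which surround the core, 13 fell and 0 rose. Their median log2 ratios were -0.20 for LGP2 cells and -0.21 for 4KR cells. Of the 30, 27 lay below 0 in both lines, against 42.9% of all genes. NDUFB5, in the membrane arm, went from 385.7 to 306.6 in LGP2 cells and from 367.3 to 258.2 in 4KR cells (log2 change -0.48, SE 0.043, limma adjusted p = 0.022). NDUFB6, a neighbour in that arm, went from 584.7 to 455.4 and from 523.1 to 378.4 (log2 change -0.43, SE 0.033, limma adjusted p = 0.021). In both genes the 12 hr arrays were below the 0 hr arrays of either line. The other accessory subunits that fell were NDUFA10, NDUFS4, NDUFB4, NDUFA9, NDUFA1, NDUFB2, NDUFA11, NDUFA7, NDUFB10, NDUFB11 and NDUFB3, with fitted log2 changes between -0.42 and -0.19.

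Accessory subunits of complex I with higher values were few. NDUFA6, which sits beside the ubiquinone-binding arm, had deposited intensities of 96.08 and 132.8 in LGP2 cells and 99.0 and 116.9 in 4KR cells, with log2 ratios of 0.16 and 0.06 (limma adjusted p = 0.17). NDUFA8, whose probe lies in block 20, had ratios of 0.44 and 0.16 (limma adjusted p = 0.10). With the block median taken off, the NDUFA8 ratios were 0.36 and 0.14.

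NDUFA13, also known as GRIM-19 and first described in cells treated with interferon and retinoic acid, showed different values in the 2 lines. Its intensity went from 1681 to 1060 in LGP2 cells and from 1190 to 976.8 in 4KR cells. The high array was LGP2 0 hr, and the other 3 lay between 976.8 and 1190. The log2 ratios were -0.62 and -0.17 (limma adjusted p = 0.13), and with the median of its block taken off they were -0.54 and -0.20. Its probe lies in block 24, as does that of NDUFB1, which had -0.42 and -0.07.

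Complex II feeds electrons from succinate into the chain and is also an enzyme of the tricarboxylic acid cycle. SDHC, a membrane anchor of the complex, was measured by 2 probes in different blocks. One went from 712.8 to 541.3 in LGP2 cells and from 714.2 to 510.3 in 4KR cells, the other from 831.0 to 616.4 and from 885.6 to 615.8. All 4 of these ratios lay between -0.47 and -0.42 on the log2 scale, so the probes gave like values, and the gene's log2 change was -0.45 (SE 0.033, limma adjusted p = 0.021). SDHA, the flavoprotein that oxidises succinate, had -0.38 and -0.13 (limma adjusted p = 0.11), from a probe in block 23. SDHD, the other membrane anchor, had 0.22 and 0.01 (limma adjusted p = 0.32), from a probe in block 20.

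Complex III passes electrons from ubiquinol to cytochrome c. Its 2 large core proteins fell. UQCRC2 went from 744.7 to 552.0 in LGP2 cells and from 749.6 to 481.0 in 4KR cells, and UQCRC1 from 383.5 to 308.0 and from 379.6 to 274.0. Both genes had their 12 hr arrays below their 0 hr arrays in either line. The log2 change was -0.53 for UQCRC2 (SE 0.041) and -0.45 for UQCRC1 (SE 0.038), each with a limma adjusted p of 0.021. The 5 small subunits did not pass, and ranged from -0.16 to 0.05 in LGP2 cells and from -0.36 to 0.00 in 4KR cells. Among them UQCR10 had -0.16 and 0.00. UQCRB, a dim probe with intensities between 13.6 and 19.7, had 0.05 and -0.01, and 0.40 and 0.16 in the deposited table.

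Complex IV, cytochrome c oxidase, had the smallest share of lower subunits, 2 of 14 (14.3%). COX7C, a small subunit found in all tissues, went from 3216 to 2517 in LGP2 cells and from 2924 to 2095 in 4KR cells (log2 change -0.29, SE 0.033, limma adjusted p = 0.025). COX5A, on the matrix side of the enzyme, had ratios of -0.34 and -0.21 (limma adjusted p = 0.043). COX4I1, a subunit through which ATP regulates the enzyme, went from 3438 to 3006 and from 3237 to 2712 in the deposited table. This corresponds to log2 ratios of -0.19 and -0.25 on that scale, whereas its quantile-normalized ratios were -0.05 and 0.04.

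Several complex IV subunits exist as a common form and a tissue-restricted one. COX6A1, the common form of subunit 6A, had log2 ratios of -0.18 and -0.31 (limma adjusted p = 0.05, not called), and COX6A2, the heart and muscle form, 0.08 and 0.03. COX4I2, the lung form that is also induced by low oxygen, had -0.03 and -0.05, with an intensity of 12.2 at LGP2 0 hr. COX7A1, the heart and muscle form of subunit 7A, had -0.10 and -0.06, with intensities between 9.1 and 9.774. COX6B2, a testis form, had -0.26 and -0.05, and the ubiquitous COX8A had -0.15 and -0.27. The testis form COX8C was listed only at 12 hr, at 3.4 and 2.4, close to the blank level, and COX7B2 was not detected. None of these isoforms passed the fit.

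A further 3 complex IV genes differed between the lines or between probes. COX7B went from 2314 to 1379 in LGP2 cells and from 1564 to 1272 in 4KR cells, with log2 ratios of -0.68 and -0.17 (limma adjusted p = 0.14). The LGP2 0 hr array was the high one, as for NDUFA13 in the same block 24. COX6B1, a subunit facing the intermembrane space with a probe in block 20, went from 2862 to 3852 in LGP2 cells and from 4041 to 2780 in 4KR cells, so that its ratios of 0.58 and -0.23 had opposite signs. COX7A2, the liver-type common form of subunit 7A, had probes that disagreed: 0.43 and 0.12 in block 21, and -0.16 and 0.07 in block 14.

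Complex V, the ATP synthase, had 3 of 17 subunits lower and 0 higher, while at an unadjusted p under 0.05 the limma fit had 12 of 17 lower, against 18.3% of all genes. ATP5F1D, a subunit of the central stalk, went from 151.1 to 124.1 in LGP2 cells and from 137.7 to 103.7 in 4KR cells (log2 change -0.45, SE 0.033, limma adjusted p = 0.021). ATP5F1E, its partner in the stalk, went from 373.5 to 337.1 and from 382.9 to 286.3 (log2 change -0.35, SE 0.059, limma adjusted p = 0.042). Both 12 hr values were the lower ones in each gene. ATP5PO, of the peripheral stalk, had -0.23 and -0.26 (limma adjusted p = 0.031).

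The catalytic subunit ATP5F1B had -0.17 and -0.38 (limma adjusted p = 0.08), going from 4414 to 3392 in LGP2 cells and from 4214 to 2597 in 4KR cells. The genes of the membrane rotor ring, ATP5MC1, ATP5MC2 and ATP5MC3, had -0.19 and -0.39, -0.09 and -0.23, and -0.09 and -0.11, and none passed. The small membrane subunits ATP5ME and ATP5MK had values near 0, at -0.04 and 0.04 and at -0.10 and 0.12. ATP5PD, a peripheral stalk gene with a probe in block 21, had 0.12 and -0.44.

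The 12 assembly factors differed from the subunits in their median log2 ratios, 0.08 in LGP2 cells and 0.11 in 4KR cells. A total of 8 lay above 0 in both lines and 1 below. Above 0 in both lines were 5 of 77 subunits and 5051 of 15738 genes in all, and 42.9% of all genes lay below. NDUFAF4, which acts in building the matrix arm of complex I, went from 344.1 to 674.0 in LGP2 cells and from 371.0 to 522.4 in 4KR cells. Both 12 hr values lay above both 0 hr values. After quantile normalization the ratio was 1.74-fold and 1.39-fold higher, and the log2 change was 0.63 (SE 0.094, limma adjusted p = 0.034). Its single probe lies in block 21, and with the block median taken off the log2 ratios were 0.74 and 0.48.

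SDHAF1, needed for the iron-sulfur clusters of complex II, went from 105.7 to 172.9 in LGP2 cells and from 109.0 to 188.1 in 4KR cells (log2 change 0.46, SE 0.053, limma adjusted p = 0.026), outside the 3 shifted blocks. SDHAF2, which helps to attach the flavin to SDHA, went from 197.4 to 258.2 and from 178.6 to 266.9, and did not pass (log2 change 0.29, SE 0.081, limma adjusted p = 0.10). In both genes the 12 hr arrays were the higher ones. NDUFAF3, a partner of NDUFAF4, was the 1 assembly factor that fell, from 852.1 to 715.5 and from 791.2 to 656.2 (log2 change -0.25, SE 0.041, limma adjusted p = 0.04). NDUFAF1 was level, at 0.00 and 0.01. NDUFAF2, a late assembly factor of complex I with a probe in block 20, had 0.43 and -0.05.

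Among the other members, COX7A2L, a factor in joining complexes III and IV into supercomplexes, fell, with log2 ratios of -0.29 and -0.38 (limma adjusted p = 0.026). ATP5IF1, the inhibitor of ATP synthase, had -0.02 and -0.16 (limma adjusted p = 0.33). The complex IV subunit COXFA4 (NDUFA4), outside the rule, went from 2556 to 1938 in LGP2 cells and from 2585 to 1549 in 4KR cells and fell (limma adjusted p = 0.038). The respiratory genes CYC1 and CYCS, also outside the rule, did not pass. CYC1 had -0.63 and 0.09 from a probe in block 24, and CYCS, a dim probe, 0.10 and 0.08.

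**Figure D2:**
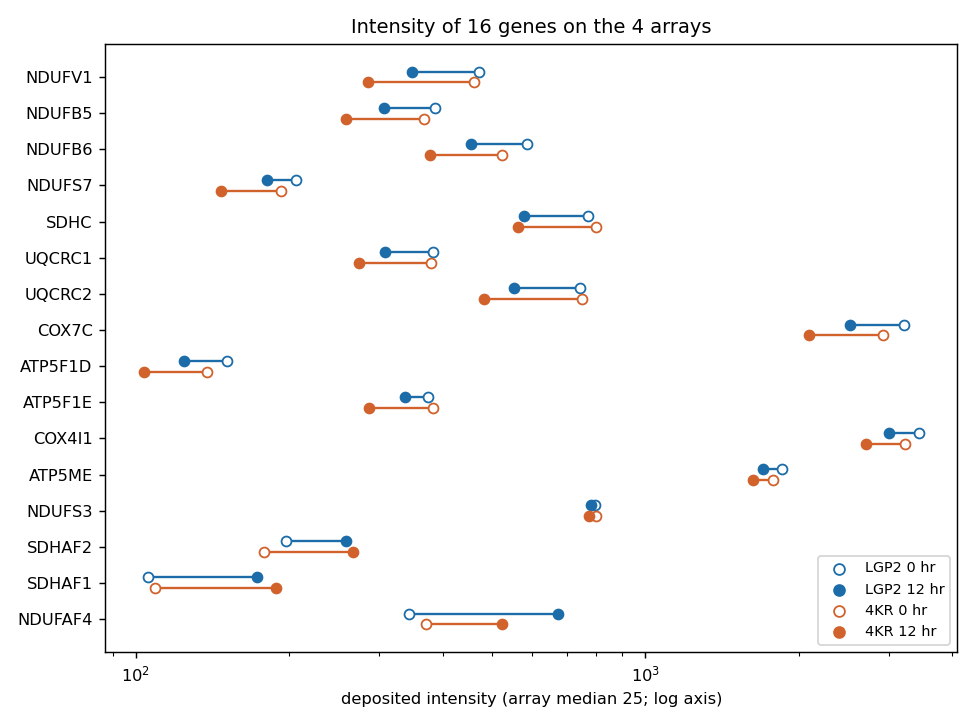
Deposited intensity on a log axis for 16 members, with open circles for 0 hr, filled circles for 12 hr and a line joining the arrays of the same line (LGP2 blue, 4KR orange). The 12 hr values lie to the left of the 0 hr values for NDUFV1 to ATP5F1E, and to the right for SDHAF2, SDHAF1 and NDUFAF4.

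Probes for near-identical pseudogenes may take up the same transcripts. UQCRBP1 had log2 ratios of -0.46 and -0.54 (limma adjusted p = 0.021), whereas the dim UQCRB probe had 0.05 and -0.01. NDUFS5P2 had -0.35 and -0.35, and NDUFS5, an accessory subunit of complex I, -0.17 and -0.09. ATP5MC1P5 and ATP5PBP6 passed the limma fit (adjusted p = 0.024 and 0.026), while ATP5MC1 and ATP5PB did not. Other pairs went the opposite way. ATP5F1EP2, in block 20, had 0.03 and -0.29, against -0.26 and -0.45 for ATP5F1E, which fell. SDHAP3 had -0.14 and 0.11, against -0.38 and -0.13 for SDHA. Values for UQCRB, NDUFS5 and the other members named here are therefore uncertain.

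The responses of the 2 lines were alike for most members. Over the 91 members detected on all 4 arrays, the LGP2 and 4KR ratios had a Pearson r of 0.66 and a Spearman rho of 0.70, across genes that share the same 4 arrays. Over the 79 outside blocks 20, 21 and 24 these were 0.82 and 0.79, compared with 0.83 and 0.70 for all genes, those blocks included. The SD of the difference of the ratios was 0.20 over the 91 members and 0.13 over the 79. In these 79, 26 genes fell and 1 rose, so all 26 lower members lie outside the shifted blocks. Those blocks were set apart because the lines differed there, and that difference is the error of the fit. Members in them are thus less likely to be called, and leaving them out raises the correlations in part by selection.

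COX6B1 was the 1 member whose responses differed by over 1.5-fold between the lines, by -0.81 (4KR minus LGP2), against a background of 0.877% of all genes. The next differences were -0.55 for ATP5PD, -0.53 for NDUFB8, 0.51 for COX7B, -0.48 for NDUFAF2 and 0.46 for NDUFA13. All of these probes lie in blocks 20, 21 and 24. Before stimulation, the 4KR line differed from the LGP2 line by a median of 0.02 over the members. Outside the 3 blocks the range was -0.30 for SDHA to 0.11 for NDUFA11. The SDHA probe lies in block 23, which had the largest median difference of the other blocks, 0.05. NDUFA2, in the same block, had -0.18 before stimulation. An effect of position on SDHA was not tested. None of these differences between lines has a test.

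**Figure D3:**
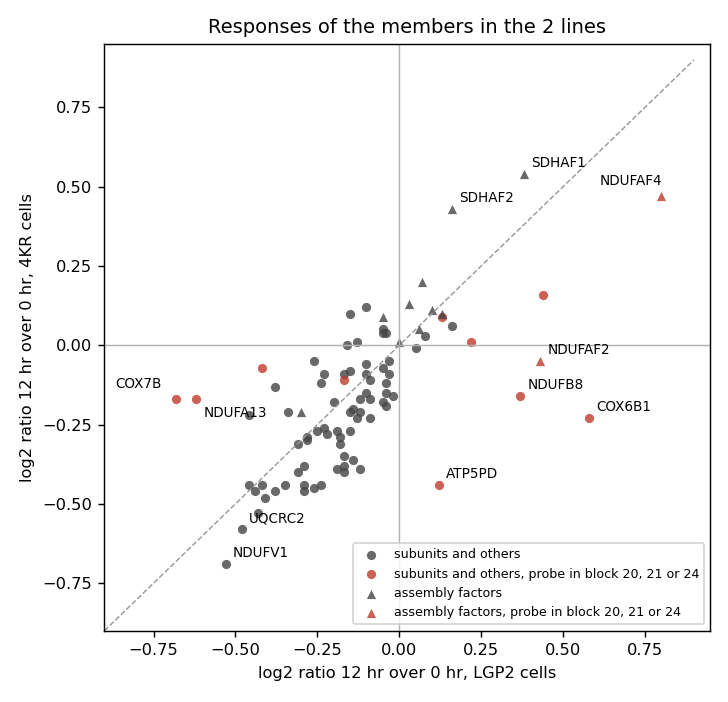
Log2 ratio of 12 hr over 0 hr in LGP2 cells (x) against 4KR cells (y) for the 91 members detected on all 4 arrays; circles are subunits and others, triangles assembly factors, red marks a probe in block 20, 21 or 24, and the dashed line is equality. Most grey points lie near the line (SD of the difference 0.13), and COX6B1 at 0.58 and -0.23 is farthest from it.

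The subunits are bright genes, so genes of similar brightness were set beside them. Between log2 levels of 9.05 and 11.37, the 1535 genes had median ratios of -0.05 in both lines, and 20.1% of them fell. The 46 members in that range had medians of -0.18 and -0.21, and 39.1% fell. The 71 cytosolic ribosomal protein genes had medians of -0.04 and -0.05, with 8 of 70 lower. The 42 constitutive proteasome genes had -0.04 and -0.09, with 8 of 41 lower.

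Other mitochondrial genes were not alike. The tricarboxylic acid cycle genes had medians of -0.18 in both lines, with 5 of 15 lower, among them the dehydrogenase gene IDH2 at -0.50 and -0.44 (limma adjusted p = 0.021). Carriers and porins of the mitochondrial membranes had -0.16 and -0.18, with 5 of 13 lower, among them the porin gene VDAC2 at -0.37 and -0.39 (limma adjusted p = 0.021). Mitochondrial ribosomal protein genes had 0.00 and 0.02, with 8 lower and 10 higher of 75. Regulators of mitochondrial biogenesis had 0.13 and 0.09, with 0 of 18 lower and 4 higher in the limma fit (2 lower and 6 higher at an unadjusted p under 0.05, against 18.3% and 16.4% of all genes). They include POLG2, the accessory subunit of the mitochondrial DNA polymerase, at 0.31 and 0.44 (limma adjusted p = 0.029).

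Respiratory genes outside the prefixes, mainly further assembly factors, had -0.07 and -0.09, with 10 lower and 3 higher of 44. Mitochondrial stress and antiviral adaptor genes had -0.07 and -0.10, with 3 lower and 2 higher of 18. Lower values also held outside mitochondria. Glycolysis genes had -0.13 and -0.15, with 7 of 24 lower, and 15 genes often used as controls had -0.23 and -0.21, with 6 lower. The share of lower calls among the subunits is thus near that of these metabolic and control genes. It is above the 8.55% of all genes. The 20.1% of genes of similar brightness stands beside the 39.1% of the 46 members in that range, assembly factors included. No share was taken for the subunits alone in that range. The lists overlap: the subunit SDHA is also a control gene, and GAPDH and PGK1 were listed for both glycolysis and controls. None of these shares was compared by a test.

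**Figure D4:**
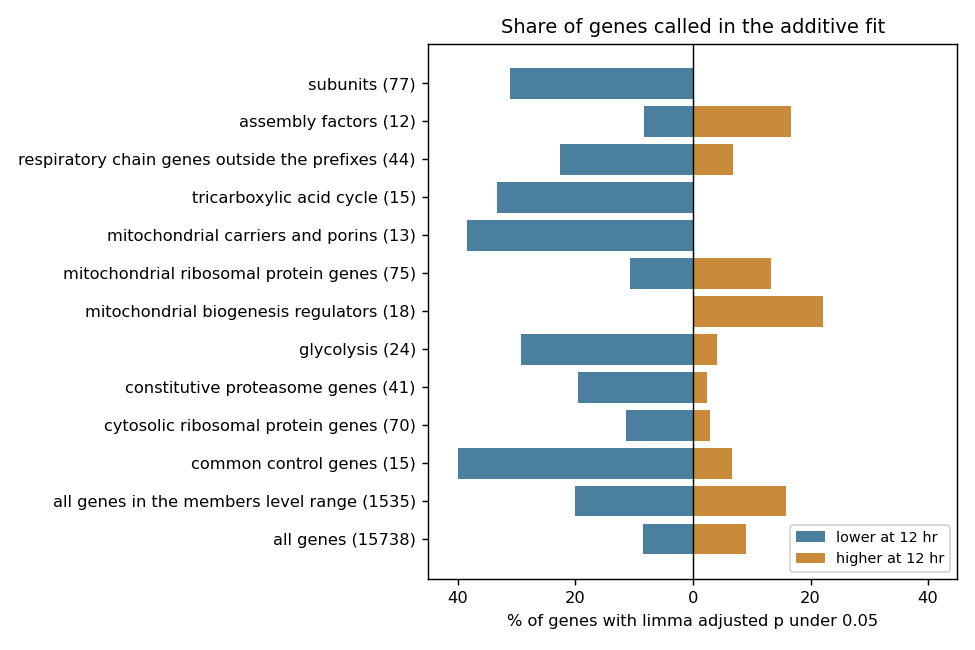
Percentage of genes in each list with a limma adjusted p under 0.05, lower at 12 hr (blue, to the left) or higher (orange, to the right), with the number of genes fitted in brackets. Subunits show 31.2% lower and 0 higher, and all genes 8.55% lower and 9.05% higher.

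Promoters of the members were compared with those of all genes for short motifs, on both strands. RefSeq entries on GRCh38.p14, from 250 bases before to 50 after the start, were found for 80 of the 94 members and for 14573 genes in all. The core of nuclear respiratory factor 1 (NRF-1), GCATGCG, a regulator of respiratory genes, was in 15 of 80 member promoters (18.8%) and in 5.15% of all. The ETS word CCGGAAG, read by the factor GABP (NRF-2), was in 27.5% and 14.3%. The YY1 word AAGATGG was in 18.8% and 6.46%, after the start in 11 members. The Sp1 word GGGCGG was in 58.8% and 59.4%, the NF-Y word CCAAT in 28 of 80 and 36.2%, and the E-box CACGTG in 10.0% and 8.87%. The interferon-stimulated response element, 2 GAAA words set 2 bases apart, was in 0 of 80 members and 3.09% of all. The NRF-1 core and the ETS word may overlap at their GC bases, and 37.5% of members held at least 1 of them, against 18.3% of all.

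Words and responses were then set side by side. Of the 23 lower members with a promoter entry, 2 held the NRF-1 core, 1 the ETS word and 8 the YY1 word. The median mean response was -0.08 for the 15 members with the NRF-1 core and -0.18 for the 65 without it, -0.10 and -0.21 for the ETS word, and -0.25 and -0.14 for the YY1 word. Among the 11 assembly factors with an entry, 3 held the NRF-1 core, 3 the ETS word and 0 the YY1 word. These are descriptions of letters in a window, over few genes.

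Sequences of 4 members are shown: NDUFV1, the member with the lowest mean response, NDUFAF4, the one with the highest, and NDUFS7 and SDHAF2, chosen after their words were seen as examples of the NRF-1 core. Each is the 200 bases before the start, 5′ to 3′ on the strand of the gene, on GRCh38.p14, and capitals mark NRF-1, ETS and YY1 words on either strand. They lie at chr11:67606736-67606935 (NDUFV1, plus strand), chr19:1383707-1383906 (NDUFS7, plus strand), chr6:96897892-96898091 (NDUFAF4, minus strand) and chr11:61429924-61430123 (SDHAF2, plus strand).
NDUFV1: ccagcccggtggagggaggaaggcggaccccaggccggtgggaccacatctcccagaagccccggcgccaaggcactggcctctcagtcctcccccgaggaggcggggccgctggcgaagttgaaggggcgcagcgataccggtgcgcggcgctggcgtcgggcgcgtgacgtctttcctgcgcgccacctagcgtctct
NDUFS7: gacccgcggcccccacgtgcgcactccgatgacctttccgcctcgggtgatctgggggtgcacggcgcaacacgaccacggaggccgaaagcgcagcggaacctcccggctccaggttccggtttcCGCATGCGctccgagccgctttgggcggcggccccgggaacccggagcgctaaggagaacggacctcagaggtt
NDUFAF4: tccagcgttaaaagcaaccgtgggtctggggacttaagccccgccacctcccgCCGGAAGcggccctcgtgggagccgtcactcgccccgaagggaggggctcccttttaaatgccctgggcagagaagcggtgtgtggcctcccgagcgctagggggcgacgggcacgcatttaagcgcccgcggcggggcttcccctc
SDHAF2: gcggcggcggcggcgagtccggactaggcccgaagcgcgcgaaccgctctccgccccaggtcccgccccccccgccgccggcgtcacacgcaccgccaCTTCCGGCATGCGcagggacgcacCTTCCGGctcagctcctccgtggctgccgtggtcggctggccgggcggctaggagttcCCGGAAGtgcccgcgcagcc
NDUFV1, the lowest member, holds none of the 3 words in these bases. NDUFS7, which also fell, holds the NRF-1 core on both strands, overlapping, and NDUFAF4, which rose, holds 1 ETS word. Past the printed bases, after the start, NDUFS7 also holds a YY1 word and NDUFAF4 an NRF-1 core. SDHAF2, higher in both lines without passing the fit, holds in the printed bases 1 NRF-1 core that overlaps an ETS word and 3 ETS words, with 1 more ETS word farther upstream.

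The median of the subunits lay below that of all genes, and the median of the 12 member assembly factors above it, under each way of scaling that was tried. Single genes did not all keep their side. A member was counted when its ratio lay on the same side of the all-gene median in both lines under 8 scalings. Below it were 51 of 91 members (56.0%), against 18.6% of 15736 genes, and the assembly factor NDUFAF3 was among them. Above it were 6 members (6.59%, against 23.2% of genes): NDUFA6, NDUFAF4, NDUFAF5, SDHAF1, SDHAF2 and SDHAF4, of which 5 are assembly factors. The number of members that passed the limma fit did depend on the scaling. It was 26 lower here, where 8.55% of all genes were lower. It was 0 without normalization between arrays, where 0.102% of all genes were lower, and 0 on the values of the authors' deposited table, where 0.566% were.

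**Figure D5:**
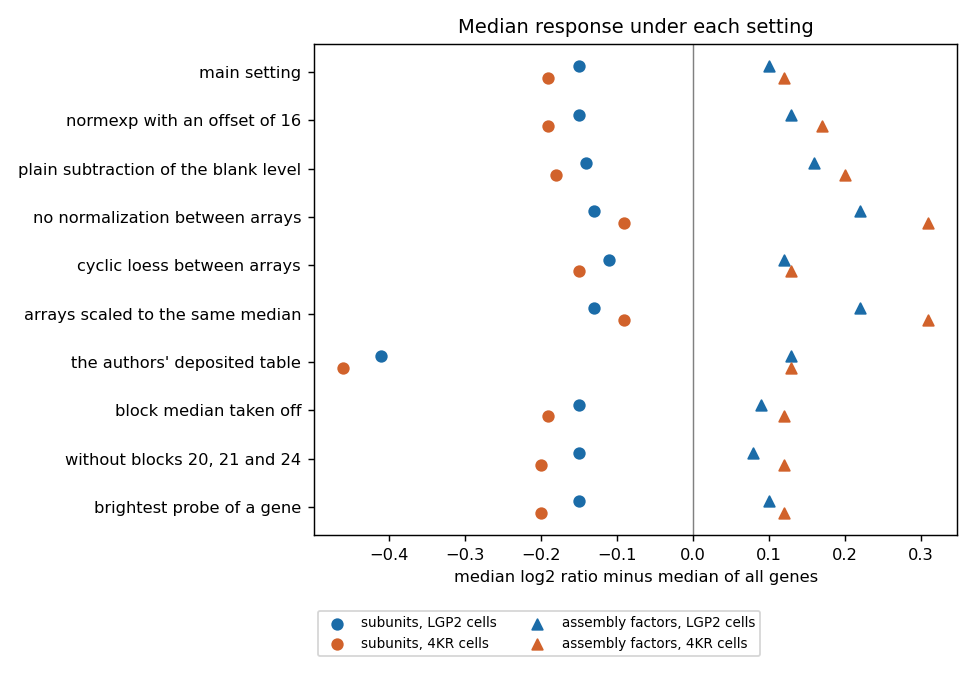
Median log2 ratio of the subunits (circles, 77 genes in the main setting) and the assembly factors (triangles, 12 genes), minus the median of all genes, in LGP2 cells (blue) and 4KR cells (orange) under each processing setting. Circles lie between -0.46 and -0.09 and triangles between 0.08 and 0.31 in the 10 settings drawn.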

How the data were processed

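Total RNA was amplified to amino allyl aRNA and coupled to Cy5, per the labels' protocols. Per the file headers, each scanner table holds an intensity per spot, not normalized (27456 spots, 24460 gene probes, 384 blank spots per array). The deposited series table gives each gene probe an intensity with an array median of 25, and the sources used here do not say how it was made beyond that. The number of arrays, 1 per group, limits the precision.

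In R 4.3.3 with limma 3.58.1, the mean blank spot served as background, since the scanner's background column followed the spot signal. Normexp (offset 50), quantile normalization and log2 followed, and probes of a gene were averaged; 1 rejected probe was left out. A ratio was called past 1.5-fold or 2-fold when the brighter array was detected. The additive fit used eBayes and Benjamini-Hochberg adjustment at 0.05. It was also run on simulated data with independent noise of the same SD for all genes. Those data held no array or block effect, so the run cannot speak to such errors. Python 3.11.15, pandas 2.3.3 and matplotlib 3.10.9 did the rest.

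Members and lists were chosen with earlier results of these data known. Members were named when past 1.5-fold, when among the 2 highest or lowest mean responses of a class, as isoforms of complex IV, as the 4 largest differences between lines per direction, or when their probes disagreed. NDUFA2, NDUFS8, NDUFS1, COX5A, ATP5PO, ATP5PB, ATP5F1B, ATP5MC1 to ATP5MC3, NDUFS5 and the further accessory subunits that fell were named after their values were seen. Classes, and the place of COX7A2L, ATP5IF1 and NDUFC2-KCTD14, were set by hand. The alternatives covered offset, background, normalization, the deposited table, position, filter, probe choice, the eBayes options and the fold.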

Additional observations from a re-analysis of the deposited data

Results flagged for a closer look

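COX6B1 was picked out because its responses in the 2 lines had opposite signs and differed by over 1.5-fold: 0.58 in LGP2 cells and -0.23 in 4KR cells, a difference of -0.81 (4KR minus LGP2). The difference was not tested, since each group had 1 array. Its probe lies in block 20, where the median difference over all genes was -0.08, and with the block medians taken off the difference was -0.74.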

How the results depend on the processing

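Without normalization between arrays the member medians turned to 0.04 in LGP2 cells and 0.21 in 4KR cells, with all genes at 0.13 and 0.28, and the median difference of the responses to 0.16. With arrays scaled to the same median that difference was 0.02 and the 4KR median -0.08. The 4KR median was -0.11 with cyclic loess and -0.30 in the authors' deposited table, where the median difference was -0.16. Relative to all genes, the member median was -0.39 (LGP2) and -0.44 (4KR) in the deposited table, and -0.08 (4KR) without normalization and with median scaling.

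Members 1.5-fold higher in LGP2 cells numbered 4 with plain subtraction, 5 without normalization, 2 with loess, 2 with median scaling, 4 in the deposited table, 0 without blocks 20, 21 and 24 and 0 at 2-fold. Those lower numbered 0 without normalization, 1 with loess, 1 with block medians taken off, 0 without the blocks and 0 at 2-fold. In 4KR cells, members higher numbered 1 at offset 16, 3 with plain subtraction, 8 without normalization, 1 with loess, 3 with median scaling and 2 in the deposited table. Members lower numbered 2 with that offset, 4 with subtraction, 0 without normalization, 0 with median scaling, 6 in the deposited table and 0 at 2-fold. Differences of the responses past 1.5-fold were 3 higher without normalization and 1 with median scaling, and 2 lower with loess, 3 in the deposited table and 0 without the blocks.

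In the limma fit, 4 members fell with plain subtraction (2.01% of all genes), 0 without normalization (0.102%), 0 in the deposited table (0.566%) and 42 without the blocks, where all 26 of the main setting were among them and 16.1% of all genes fell. Members that rose numbered 5 at offset 16, 1 with plain subtraction, 26 without normalization (42.8% of all genes), 13 with median scaling (23.1%) and 1 without a filter on dim probes. Without normalization ATP5F1D turned to 0.01, ATP5F1E to 0.07, COX7A2L to 0.05, NDUFAF3 to 0.10 and NDUFS7 to 0.06. Of the 14 named members called, 11 lost the call under plain subtraction and 13 lost it in the deposited values. The causes were not tested.

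No paired analysis was possible because the labels give no replicate numbers, beyond the additive fit itself, which holds the line as a term. With 1 array per group, no array was left out in turn. The offset of 50 shrinks the ratios of dim genes such as COX7A1 and COX4I2.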
